A study of Mus musculus with 7 samples.

Results

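The genes described here are 8 members of the interleukin-1 (IL-1) family and of the inflammasome, the protein complex that activates it. They are the ligands Il1a, Il1b and Il18, the receptor antagonist Il1rn, the decoy receptor Il1r2, the sensor Nlrp3 and the proteases Casp1 and Casp4. They were chosen by symbol and are 8 of the 27998 genes counted in all 7 libraries. The cells came from the central nervous system of mice with experimental autoimmune encephalomyelitis (EAE), a model of multiple sclerosis in which T cells against a myelin peptide bring monocytes and neutrophils into the spinal cord and brain. The question of the study was how loss of LAG3, an inhibitory receptor of T cells, changes cells of the inflamed tissue.

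The Lag3KO group held mice labelled Lag3Floxed and described as LAG3 deficient, and the WT group held mice labelled Lag3wt. Both were on the B6 background, both were immunised with the MOG35-55 peptide, and both were taken at peak disease with matched scores, so no group was free of disease. The labels give 5 mice per group and age and sex matching, but no ages, and neither the Cre line, the deleted exons nor the mice behind each library are given in the sources used here. Cells were enriched with beads for CD45, which all leukocytes carry, or for CD4, and each library was made with droplet 3′ tag counting. This gave 1 Lag3KO and 2 WT libraries of the CD45 sort, and 2 Lag3KO and 2 WT libraries of the CD4 sort.

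Both agonists of the IL-1 receptor lack a classical secretion signal. Nlrp3 senses damage, assembles with the adaptor Pycard and activates caspase-1, which cleaves the precursors of IL-1β and IL-18 and opens the pore former gasdermin D, while mouse caspase-11, the product of Casp4, opens that pore after binding bacterial lipopolysaccharide. The antagonist encoded by Il1rn occupies the signalling receptor Il1r1 without activating it, and Il1r2 binds the agonists but has no signalling domain. In EAE, IL-1 acting on T cells is known for its part in the differentiation of Th17 cells, and myeloid cells of the lesion are its known source.

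Both agonist genes lie side by side on the minus strand of chromosome 2 (GRCm38), Il1a at chr2:129299610-129309972 and Il1b at chr2:129364570-129371139, with 54597 bp and no protein-coding gene between them. Il1rn lies far from them on the same chromosome, on the plus strand at chr2:24336853-24351494. Casp1 (chr9:5298517-5307265) and Casp4 (chr9:5308828-5336783) are plus-strand neighbours on chromosome 9, separated by 1562 bp, and Il18 lies on that chromosome at chr9:50554827-50581840. Il1r2 lies at chr1:40074079-40125231 and Nlrp3 at chr11:59541568-59566956, both on the plus strand. Antisense genes overlap exons of Il1a (Gm14023), Il1b (Il1bos) and Il1r2 (Gm16894), and the protein-coding gene Bco2 overlaps Il18. Reads of overlapping genes can be told apart only where the counting used strand, which is not stated in the sources used here.

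The promoters of Il1a, Il1b and Il1rn are shown because these are the agonists and their antagonist, whose levels are set against each other below. Each run is the 250 bases before a RefSeq transcript start of GRCm38.p6, read 5′ to 3′ on the gene's own strand, and for Il1rn it is the most upstream of its starts. Capitals mark a TATA box (TATAAA) or an AP-1 motif (TGANTCA).
Il1a, chr2:129309973-129310222, minus strand: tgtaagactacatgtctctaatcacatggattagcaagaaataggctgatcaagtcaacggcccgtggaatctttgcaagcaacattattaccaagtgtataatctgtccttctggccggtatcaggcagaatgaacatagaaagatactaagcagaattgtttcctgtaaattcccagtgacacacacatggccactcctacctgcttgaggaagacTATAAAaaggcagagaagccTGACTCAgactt
Il1b, chr2:129371140-129371389, minus strand: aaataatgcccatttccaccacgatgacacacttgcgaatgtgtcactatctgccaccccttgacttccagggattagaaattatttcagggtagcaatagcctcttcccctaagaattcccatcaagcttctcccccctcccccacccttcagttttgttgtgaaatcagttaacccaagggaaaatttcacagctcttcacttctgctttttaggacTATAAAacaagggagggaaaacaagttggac
Il1rn, chr2:24336610-24336859, plus strand: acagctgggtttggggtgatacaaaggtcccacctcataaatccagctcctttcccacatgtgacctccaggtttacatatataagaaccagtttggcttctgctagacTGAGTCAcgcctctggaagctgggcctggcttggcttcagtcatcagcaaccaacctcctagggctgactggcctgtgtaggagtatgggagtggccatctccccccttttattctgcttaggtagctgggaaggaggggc
The TATA box begins 32 bases before the start in Il1a and 31 bases before it in Il1b, and 7.59% of 32851 RefSeq promoter windows of this length hold that motif. An AP-1 motif begins 12 bases before the start in Il1a and 141 bases before it in Il1rn, against 6.75% of all windows. The TATA box was searched on the gene's strand and AP-1 on both strands. The motifs of 4 more factors or responses were searched on both strands: NF-kB, C/EBP (TTGCNNAA), the interferon-stimulated response element and the gamma-activated site (TTCNNNGAA). They were found in 1.21%, 9.56%, 2.98% and 7.02% of all windows, and none of them in the 3 windows printed here. Among the windows of all 8 genes, the remaining match was a gamma-activated site 111 bases before the start of Il1r2. Windows of the other Il1rn starts, chr2:24345041-24345290 and chr2:24345121-24345370, are not printed and held no match of any motif searched. A match is a string of letters and does not show that a factor binds there, and its absence from these windows says nothing about the factor.

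Depth differed by sort. The CD45 libraries held 16050069 to 18940186 unique molecular identifiers (UMIs, each a counted RNA molecule), with a median of 5680 to 6405 per barcode. The CD4 libraries held 4585251 to 5777728 UMIs, with a median of 2086.5 to 2599.5 per barcode. Between 1361 and 2466 barcodes per library were kept, and pairs of libraries shared 0 to 12 barcode sequences. The CD4 libraries had 927 to 1016 Xist CPM, and the CD45 libraries had 111 to 127 CPM of Y-linked genes, so sort and sex of the mice cannot be told apart. CPM here means UMIs of a gene per 1000000 UMIs of the cells in question. Lag3 itself had 2 UMIs in the Lag3KO library of the CD45 sort, against 304 in WT_CD45 1 and 4 in WT_CD45 2. In the CD4 sort Lag3 had 1 and 0 UMIs in the Lag3KO libraries, against 289 and 107 in the WT libraries. The library labelled WT_CD45 2 therefore had a Lag3 level like that of the Lag3KO libraries (0.250 CPM, against 16.4 CPM in WT_CD45 1). It is therefore called the library labelled WT_CD45 2, and the genotype differences it moves are also given without it. Since the deleted exons are not given, a 3′ tag might lie outside them, and Lag3 counts then check the labels only in part.

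Cells were grouped by clustering that left out all 8 genes and the other genes of their pathway, and each cluster was named by UMIs of marker genes. Barcodes with both T cell and myeloid RNA were set apart as mixed, 21.7 to 27.6% of the CD45 libraries and 3.53 to 6.79% of the CD4 libraries. Genes that vary with the 8 still shape the clusters, so levels in different cell classes are described and not tested. Conventional CD4 T cells are called Tconv and regulatory T cells Tregs. Dendritic cells fell into cDC1, a class of cDC2 or monocyte-derived cells, a migratory class with Ccr7 and Fscn1, and plasmacytoid cells.

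The 8 genes had 3 kinds of distribution. Il1b, Il1rn, Il1a, Il18 and Nlrp3 were found mainly in myeloid cells, Il1r2 in neutrophils, dendritic cells, T cells and, in the CD4 sort, monocytes or macrophages, and Casp1 and Casp4 in both myeloid and T cells. No member differed between Lag3KO and WT cells past the threshold in any class.

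**Figure D1:**
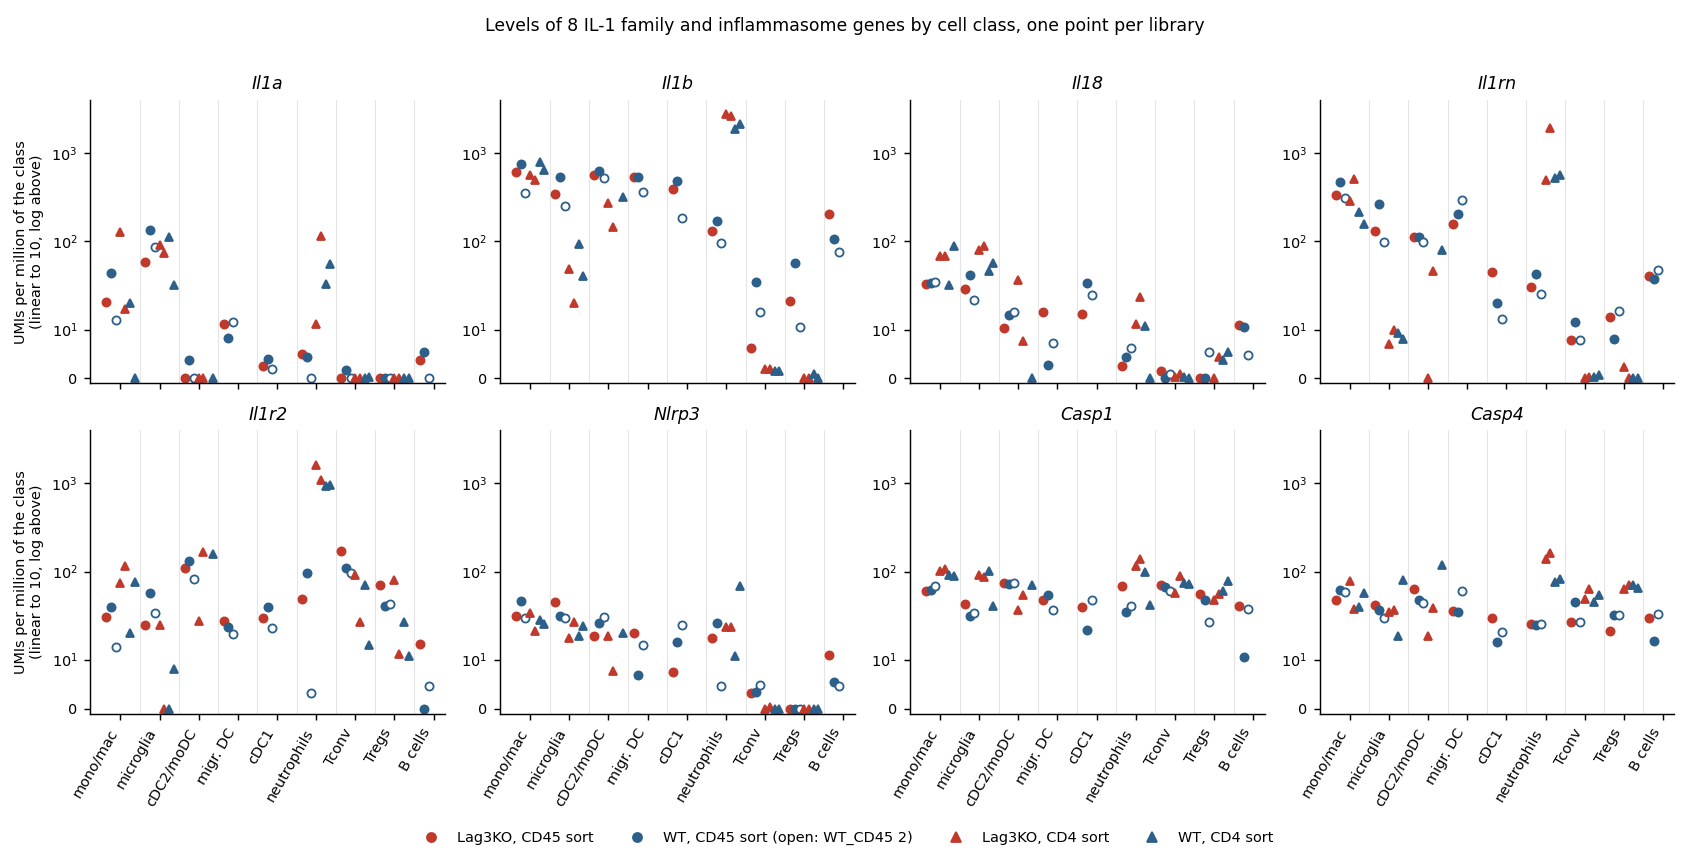
Levels of the 8 genes (y axis, CPM of the class, linear to 10 and logarithmic above) in 9 cell classes (x axis), with 1 point per library: Lag3KO red, WT blue, circles the CD45 sort, triangles the CD4 sort, and the open circle the library labelled WT_CD45 2. Il1b, Il1rn and Il1r2 lay far higher in neutrophils of the CD4 sort than in those of the CD45 sort, and Nlrp3 was at 0 in the Tregs of every library.

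Il1b, the gene of the main secreted agonist IL-1β, was carried by monocytes or macrophages at 609 CPM in the Lag3KO library of the CD45 sort, against 751 CPM in WT_CD45 1 and 352 CPM in the library labelled WT_CD45 2. The same class of the CD4 sort had 573 and 499 CPM in the Lag3KO libraries, against 793 and 642 CPM in the WT libraries. The Lag3KO value of the CD45 sort lay between those of WT_CD45 1 and the library labelled WT_CD45 2, and those of the CD4 sort lay below both WT values. The WT values of the CD4 sort rested on few cells: the highest cell held 24 of 203 and 10 of 118 Il1b UMIs in the Lag3KO libraries, against 79 of 198 and 37 of 102 in the WT libraries. Without the highest cell of each library, a check chosen after the values were seen, the levels were 513 and 464 CPM in the Lag3KO libraries, against 490.2 and 420 CPM in the WT libraries, and the groups overlapped. Between 48.3% and 71.9% of these cells had at least 1 Il1b UMI. In the CD45 sort the class of cDC2 or monocyte-derived dendritic cells stood level with them at 577 ± 57.1 CPM (SD, n = 3 libraries), against 571 ± 203 CPM in monocytes or macrophages. Within that class, cluster CD45-6 had 669 ± 71.8 Il1b CPM (587 to 714). Cluster CD45-14, richer in Cd209a (1726 CPM, against 386 CPM in CD45-6), had 296 ± 83.3 Il1b CPM (201 to 356). Among the classes of the CD45 sort, migratory dendritic cells (483 ± 100 CPM), microglia (377 ± 146 CPM) and cDC1 (358 ± 156 CPM) followed, each overlapping its neighbour in that order. Neutrophils of the same sort were lower than cDC1, at 133 ± 37.1 CPM, with no overlap between their libraries, and B cells had 129 ± 67.4 CPM. T cells with little Cd4, at 179 CPM in the Lag3KO library, 237 CPM in WT_CD45 1 and 80.9 CPM in the library labelled WT_CD45 2, overlapped cDC1, neutrophils and B cells. Microglia of the CD4 sort had far less Il1b than those of the CD45 sort. They had 48.9 and 19.9 CPM in the Lag3KO libraries, against 92.6 and 40.5 CPM in the WT libraries.

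B, T and NK cells are not known as main sources of IL-1β, but Il1b UMIs were found in them. Whether these were their own RNA, free RNA or RNA of other cells in a droplet was not tested. Tconv had 1.54 to 2.02 Il1b CPM in the CD4 sort and 6.23 to 34.4 CPM in the CD45 sort, where myeloid cells were many. Tconv give a low measure of such UMIs, since barcodes with both T cell and much myeloid RNA had been set apart. B cells had 205 CPM in the Lag3KO library of the CD45 sort, against 107 CPM in WT_CD45 1 and 75.5 CPM in the library labelled WT_CD45 2, and NK cells of that sort had 17.4 to 188 CPM. The Il1b UMIs of B cells lay in 10 of 70, 9 of 44 and 6 of 57 cells of those libraries. Il1b levels of that size, those of CD45 neutrophils included, therefore cannot be told from those of cells not known as main sources. When each cell of the CD45 sort was thinned to 2000 UMIs, Il1b was found in 39.6% of monocytes or macrophages of the Lag3KO library (95% exact interval 36.3 to 43.0%). In WT_CD45 1 the same share was 47.4%, and the library labelled WT_CD45 2 had 31.3%. In Tconv the thinned shares were 1.31% in the Lag3KO library, 5.44% in WT_CD45 1 and 3.91% for the library labelled WT_CD45 2, and in B cells they were 11.4%, 11.4% and 7.02% in that order. Before thinning, those shares were 59.3%, 69.9% and 48.3% in monocytes or macrophages at median depths of 5177 to 6081 UMIs, and 1.96%, 10.9% and 6.25% in Tconv at 3283 to 3499 UMIs. The intervals here and below cover counting error only.

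Neutrophils of the CD4 sort had the highest Il1b CPM of any class, 2769.8 and 2676 CPM in the Lag3KO libraries against 1913 and 2177 CPM in the WT libraries. Both Lag3KO values lay above both WT values. The CD45 sort gave 132 CPM in its Lag3KO library, against 170.1 CPM in WT_CD45 1 and 95.9 CPM in the library labelled WT_CD45 2, although the same 11 marker genes named the class. The cells differed in other genes too. In the CD45 sort, the 34, 55 and 48 neutrophils had 1932, 1072 and 1572 CPM of Elane, a protease of immature granulocytes, and only 7.61 to 57.2 CPM of Cxcr2, a chemokine receptor of mature neutrophils. Elane was found in 29.4%, 34.5% and 33.3% of those cells, S100a8 in 79.4%, 85.5% and 60.4%, and S100a9 in 67.6%, 67.3% and 33.3%. The class was thus not uniform in the CD45 sort, and the part of this in its levels and genotype differences was not tested. Neutrophils of the CD4 sort, 49 to 81 per library, had 0 Elane UMIs, where 3 UMIs would be 33.0 to 41.6 CPM, and 512 to 818 CPM of Cxcr2. Median depths also differed, 10880 to 12758.5 UMIs per cell in the CD45 sort and 858 to 1200 in the CD4 sort. Neutrophils held 237 Il1b UMIs in 81 cells and 230 in 60 in Lag3KO, and 174 in 61 and 157 in 49 in WT libraries of the CD4 sort. Monocytes or macrophages there held 203 in 84, 118 in 50, 198 in 47 and 102 in 32, so UMIs per cell overlapped between these classes. Neutrophils of the CD45 sort held 52 in 34 cells (Lag3KO), 116 in 55 (WT_CD45 1) and 61 in 48 (WT_CD45 2). After thinning to 1000 UMIs, which left 31 to 44 of those cells per library, Il1b was found in 64.5% and 68.2% of neutrophils in Lag3KO libraries and 53.1% and 72.2% in WT libraries of the CD4 sort.

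At these levels, few cells supplied much of the Il1b in the CD4 libraries. Neutrophils were 3.24 to 5.61% of the cells kept there and 1.64 to 1.70% of all UMIs, but held 33.3 to 52.6% of the Il1b UMIs, 22.1 to 53.2% of those of Il1rn and 22.3 to 41.7% of those of Il1r2. Monocytes or macrophages, with 3.61 to 7.03% of all UMIs, held another 27.0 to 37.9% of Il1b and 24.5 to 51.8% of Il1rn. In the CD45 libraries monocytes or macrophages held 27.5 to 33.0% of all UMIs, 40.8 to 47.2% of Il1b and 52.0 to 59.97% of Il1rn. Mixed barcodes held 31.1 to 32.5% of Il1b there, with 35.6 to 43.3% of all UMIs.

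**Figure D2:**
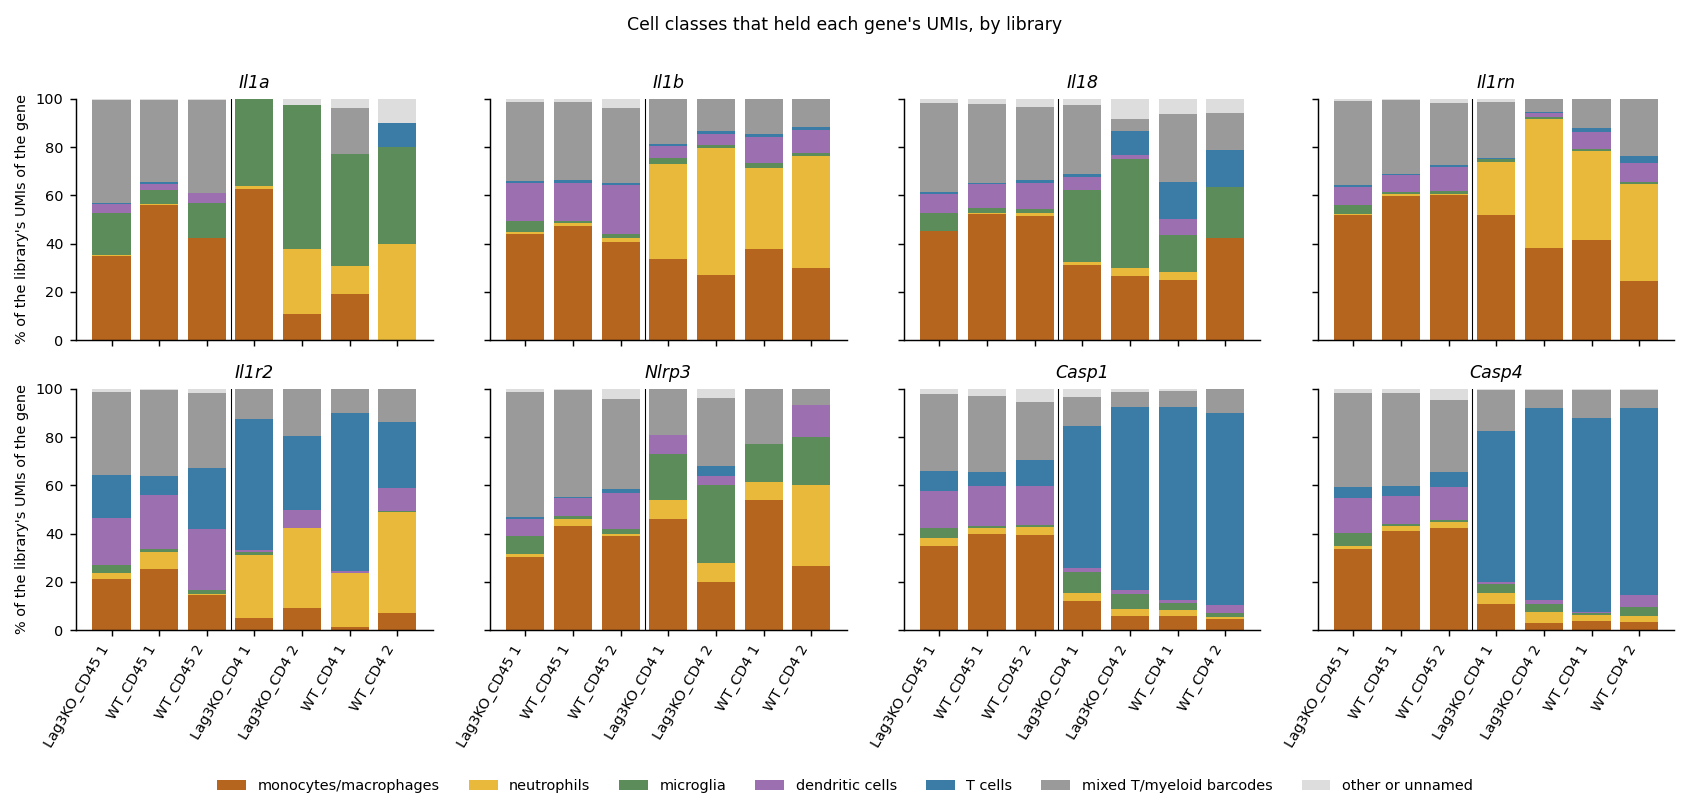
Share of each gene's UMIs in a library (y axis, %) held by each family of cell classes (colours), with the 3 CD45 libraries left of the line and the 4 CD4 libraries right of it, Lag3KO before WT in each sort. Neutrophils held 33.3 to 52.6% of Il1b UMIs in the CD4 libraries. T cells held most Casp1 and Casp4 UMIs there, as they did of all UMIs.

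Il1a, the agonist that is active before cleavage, was highest in microglia, the resident macrophages of the nervous system, in the CD45 sort. Microglia had 58.2 CPM in the Lag3KO library of the CD45 sort, against 134 CPM in WT_CD45 1 and 85.4 CPM in the library labelled WT_CD45 2. Those of the CD4 sort had 90.8 and 73.1 CPM in the Lag3KO libraries, against 111 and 32.4 CPM in the WT libraries. The Lag3KO value was the lowest in the CD45 sort, and both lay between the WT values in the CD4 sort. The value of WT_CD45 1 came from 22 cells, and 3 of them held 73.1% of its 26 Il1a UMIs, 78.8% of its 104 Il1b UMIs and 80.4% of its 51 Il1rn UMIs. Without its highest cell that library had 103 Il1a CPM. Over the CD45 libraries microglia averaged 92.7 ± 38.6 CPM of Il1a (SD, n = 3), 3.60 times the 25.8 ± 16.1 CPM of monocytes or macrophages, with no overlap between their libraries. Neutrophils of the CD4 sort had 11.7 and 116 Il1a CPM in the Lag3KO libraries, against 33.0 and 55.5 CPM in the WT libraries, from 1 to 10 UMIs each. They were thus above microglia in Lag3KO_CD4 2 and WT_CD4 2, and monocytes or macrophages were above microglia in Lag3KO_CD4 1. In the CD4 libraries microglia held 36.1 to 59.5% of Il1a UMIs with 1.97 to 5.85% of all UMIs. The microglial class was not pure: the sum over 10 microglial markers was 4254 CPM in the Lag3KO library, 4749 CPM in WT_CD45 1 and 7052 CPM in the library labelled WT_CD45 2 of the CD45 sort, against 10615 to 17742 CPM in the CD4 sort. The 18 markers of monocytes or macrophages summed to 35120 to 48414 CPM in the CD45 sort and 38443 to 49312 CPM in the CD4 sort in the same cells, several of them being genes that microglia also use. The part of that mixture in the microglial levels was not tested.

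A high Il1a value in monocytes or macrophages of Lag3KO_CD4 1 came from very few cells. That library had 127 CPM, against 16.9 CPM in Lag3KO_CD4 2 and 20.03 and 0 CPM in WT libraries of that sort. Its 45 Il1a UMIs lay in 10 of 84 cells, 14 of them in 1 cell and 75.6% in the 3 highest cells. In the WT library at 0, 3 UMIs would be 18.9 CPM.

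Il18, whose product drives interferon-γ in T and NK cells, was low and myeloid. Monocytes or macrophages had 32.6 CPM in the Lag3KO library of the CD45 sort, 34.0 CPM in WT_CD45 1 and 34.6 CPM in the library labelled WT_CD45 2, the closest agreement between libraries of any member in that class. Those of the CD4 sort had 67.8 and 67.7 CPM in the Lag3KO libraries, against 32.0 and 88.1 CPM in the WT libraries, so the Lag3KO values lay between the WT values. Microglia had 29.1 CPM in the Lag3KO library of the CD45 sort, 41.3 CPM in WT_CD45 1 and 21.4 CPM in the library labelled WT_CD45 2. Microglia of the CD4 sort had 80.3 and 89.7 CPM in the Lag3KO libraries, against 46.3 and 56.6 CPM in the WT libraries, with no overlap between the groups. The order over CD45 libraries was monocytes or macrophages (33.8 ± 1.01 CPM), microglia (30.6 ± 10.1 CPM) and cDC1 (24.4 ± 9.49 CPM), and neighbours in it overlapped.

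Il1rn, the antagonist gene, correlated with Il1b over classes and libraries of the CD45 sort (Pearson correlation 0.84 over 37 sums), but cDC1 had little of it. Its 3′ tags do not separate the transcripts for the secreted and the intracellular forms, which begin at different starts. Monocytes or macrophages had 337 CPM in the Lag3KO library of the CD45 sort, against 469 CPM in WT_CD45 1 and 315 CPM in the library labelled WT_CD45 2. Those of the CD4 sort had 285 and 508 CPM in the Lag3KO libraries, against 216 and 157 CPM in the WT libraries. Both Lag3KO values of the CD4 sort were above both WT values, while that of the CD45 sort lay between those of WT_CD45 1 and the library labelled WT_CD45 2. Over the CD45 libraries monocytes or macrophages led with 374 ± 83.6 CPM (SD, n = 3), 1.71 times the 218 ± 68.0 CPM of migratory dendritic cells and without overlap. Microglia (164 ± 87.5 CPM) and cDC2 or monocyte-derived dendritic cells (108 ± 7.09 CPM) came next, and B cells had 41.9 ± 4.89 CPM. cDC1 had 25.9 ± 16.5 Il1rn CPM, with 358 ± 156 CPM of Il1b. Microglia of the CD4 sort had only 6.98 and 9.96 CPM in the Lag3KO libraries and 9.26 and 8.09 CPM in the WT libraries.

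Neutrophils of Lag3KO_CD4 2 stood apart in Il1rn. They had 1943 CPM, from 167 UMIs in 61.7% of 60 cells, against 503 CPM in Lag3KO_CD4 1 and 528 and 569 CPM in the WT libraries of that sort. The 3 highest cells held 29.3% of the 167 UMIs, so the level was spread over many cells. Il1b in the same neutrophils (2676 CPM) was within the range of the other libraries.

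Monocytes or macrophages of the CD45 sort fell into 5 clusters, whose mean Il1b levels spanned a wider range than the 3 libraries did. The clusters were formed without the 8 genes and are named here by number and by leading genes. Cluster CD45-4, led by Irg1 and Clec4e, had 1039 ± 187 Il1b CPM and 896 ± 209 Il1rn CPM (SD, n = 3 libraries). Its mean Arg1 level, 1154 CPM, was below the 1531 CPM of CD45-1. Its mean Nos2 level, 107 CPM, was above the 2.32 to 16.3 CPM of the other clusters named here. CD45-7, led by the interferon-induced genes Cxcl10, Rsad2 and Isg15, had 950 ± 433 Il1b CPM and 825 ± 206 Il1rn CPM. CD45-2, led by Ccr2 and H2-Aa, had 523 ± 127 Il1b CPM, CD45-8, led by Chil3 and F13a1 as in newly arrived monocytes, had 346 ± 141 CPM, and CD45-1, led by Gpnmb and Apoe, had 193 ± 80.7 CPM. The antagonist spanned a wider range than the agonist across these clusters. CD45-8 had 41.8 Il1rn CPM in the Lag3KO library, against 40.2 CPM in WT_CD45 1 and 25.2 CPM in the library labelled WT_CD45 2. CD45-4 had 657 Il1rn CPM in the Lag3KO library, against 988 CPM in WT_CD45 1 and 1045 CPM in the library labelled WT_CD45 2.

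Other members divided along other lines in the same clusters. Il1a was concentrated in CD45-4 at 74.4 ± 40.3 CPM. The interferon-rich CD45-7 was highest in Il18 (85.1 ± 9.27 CPM), Casp4 (125 ± 29.7 CPM) and Casp1 (108 ± 19.3 CPM). CD45-8 was next in Casp1 at 95.5 ± 24.1 CPM, overlapping CD45-7, and CD45-1 was lowest in Casp1 (39.5 ± 6.96 CPM) and Casp4 (25.6 CPM). In the library labelled WT_CD45 2, CD45-4 made up 12.5% of monocytes or macrophages, against 22.1% in the Lag3KO library and 22.5% in WT_CD45 1, and Il1b was also lower within 4 of the 5 clusters (450.0 CPM in CD45-7, against 1192 CPM in the Lag3KO library and 1207 CPM in WT_CD45 1). The monocytes or macrophages of the CD4 sort numbered 84 and 50 in the Lag3KO libraries and 47 and 32 in the WT libraries, and formed 1 cluster.

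**Figure D3:**
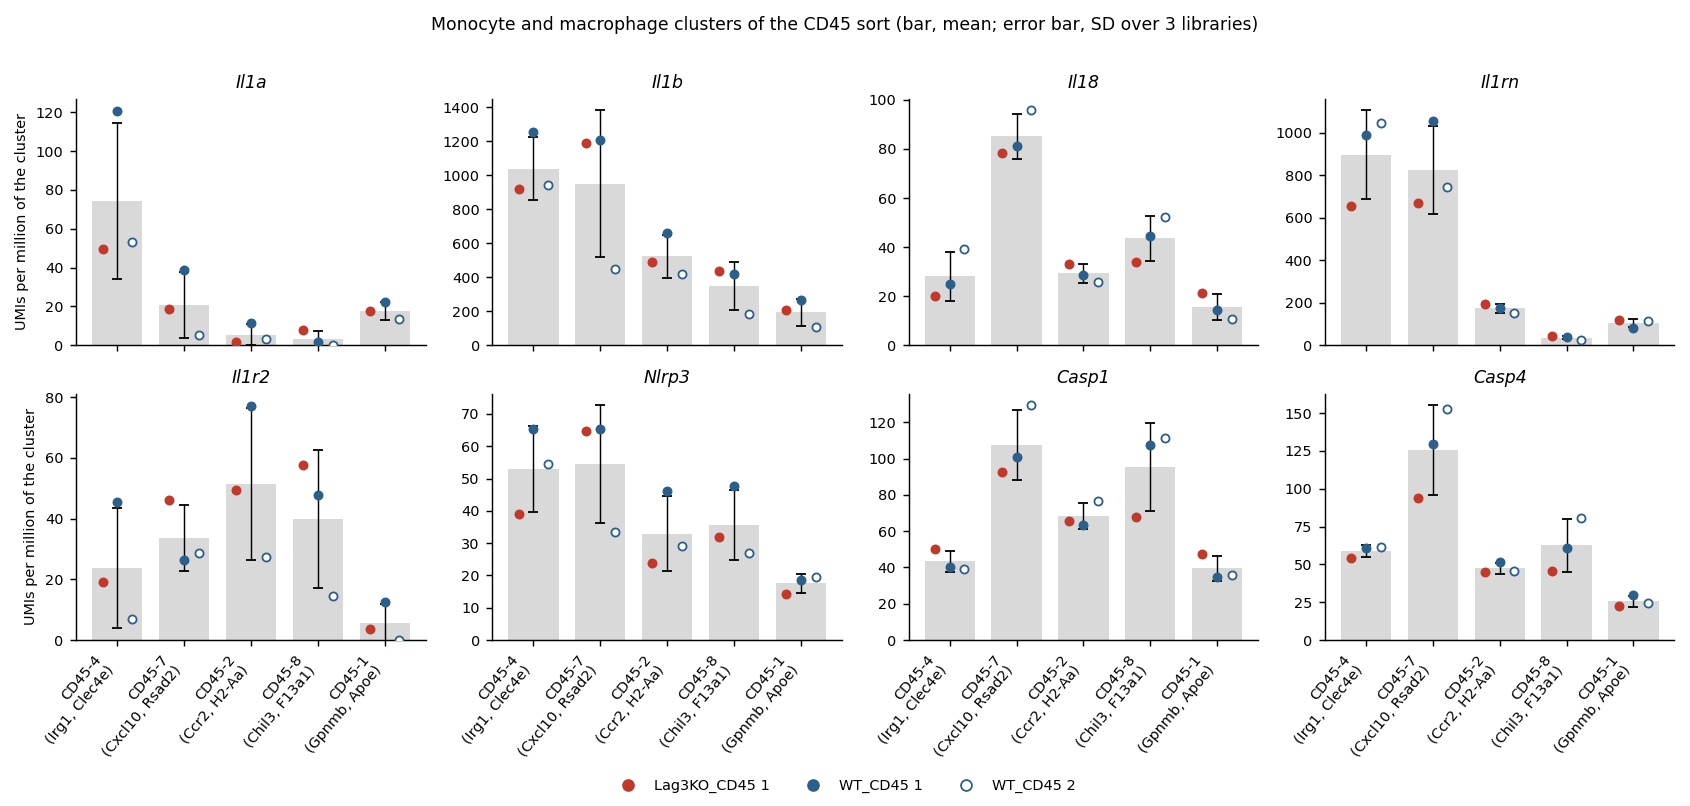
Levels of the 8 genes (y axis, CPM of the cluster) in the 5 monocyte and macrophage clusters of the CD45 sort (x axis, with leading genes), where bars are means, error bars are SD over 3 libraries and points are libraries. Il1b and Il1rn were highest in CD45-4 and CD45-7, and Il18, Casp1 and Casp4 in CD45-7.

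The ratio of Il1rn to Il1b UMIs sets antagonist against agonist in the same cells. It compares 3′ tags and not protein, and only its differences between cells can be read. In the CD45 sort, monocytes or macrophages had 0.553 Il1rn UMIs per Il1b UMI in the Lag3KO library, against a ratio of 0.625 in WT_CD45 1 and one of 0.895 in the library labelled WT_CD45 2. In the CD4 sort they had 0.498 and 1.02 in the Lag3KO libraries, against 0.273 and 0.245 in the WT libraries. The Lag3KO library was lowest in the CD45 sort, and both Lag3KO libraries were highest in the CD4 sort. Neutrophils had 0.231 in the Lag3KO library of the CD45 sort, 0.250 in WT_CD45 1 and 0.262 for the library labelled WT_CD45 2, and 0.181 and 0.726 in Lag3KO and 0.276 and 0.261 in WT libraries of the CD4 sort. The class of cDC2 or monocyte-derived dendritic cells in the CD45 sort had 0.196 in the Lag3KO library, 0.176 in WT_CD45 1 and 0.190 for the library labelled WT_CD45 2. Its clusters differed, with means of 142 Il1rn to 669 Il1b CPM in CD45-6 and 9.45 to 296 CPM in CD45-14. Where this class was small, in the CD4 sort, it had 0 Il1rn to 30 Il1b UMIs in Lag3KO_CD4 1, 6 to 19 in Lag3KO_CD4 2 and 8 to 32 in WT_CD4 2, and no ratio was taken under 10 UMIs of either gene. Between clusters the ratio spanned a wider range: CD45-8 had 0.0959 in the Lag3KO library, 0.0961 in WT_CD45 1 and 0.137 for the library labelled WT_CD45 2. CD45-4 had a ratio of 0.715 in the Lag3KO library, 0.787 in WT_CD45 1 and 1.11 for the library labelled WT_CD45 2.

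**Figure D4:**
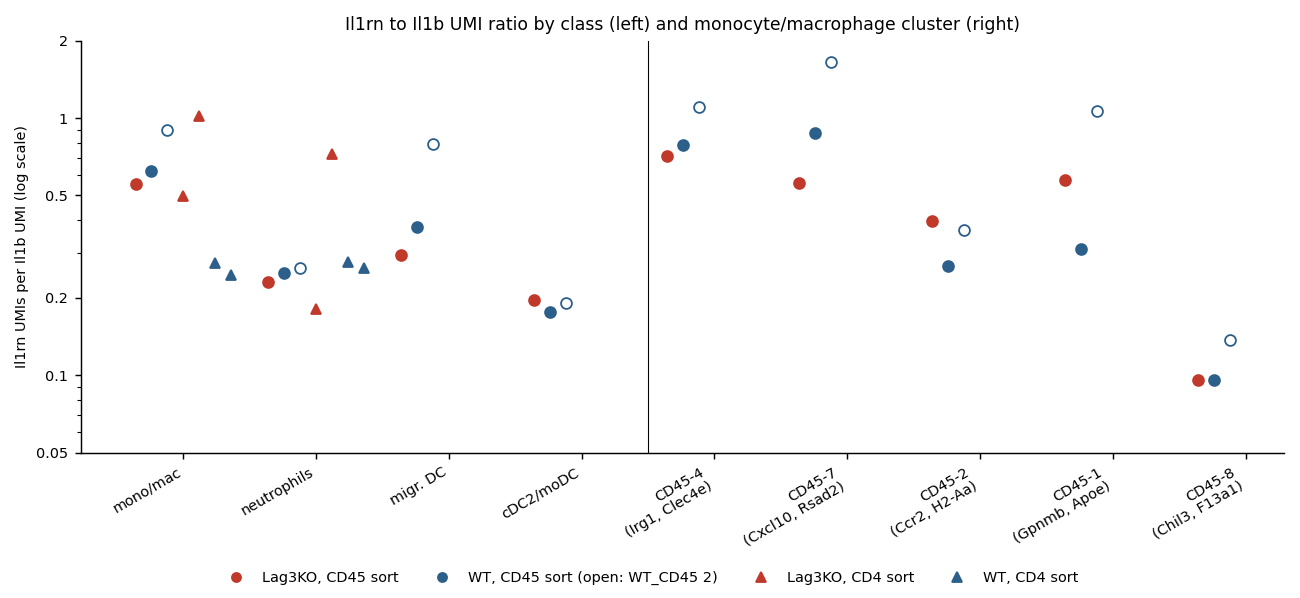
Il1rn UMIs per Il1b UMI (y axis, logarithmic) in 4 classes (left) and in 5 monocyte and macrophage clusters of the CD45 sort (right), with 1 point per library with at least 10 UMIs of each gene and symbols as in the plot of levels. Cluster CD45-8 lay between 0.0959 and 0.137, below every point plotted for the other clusters and the 4 classes. Low ratios were also found in cells not plotted. cDC1 of the CD45 sort had 18 Il1rn to 161 Il1b UMIs in the Lag3KO library and 10 to 246 in WT_CD45 1. The dendritic cell cluster CD45-14 had mean levels of 9.45 Il1rn to 296 Il1b CPM.

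The same cells often carried both. In the Lag3KO library of the CD45 sort, 56.9% of monocytes or macrophages with an Il1b UMI also had an Il1rn UMI, against 43.3% of those without. In WT_CD45 1 the shares were 61.5% with Il1b and 39.6% without, and in the library labelled WT_CD45 2 they were 51.4% and 30.4%. Depth per cell was not matched in these shares.

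Il1r2, the decoy receptor, had the most varied set of sources. Neutrophils of the CD4 sort had 1613 and 1105 CPM in the Lag3KO libraries, against 934 and 971 CPM in the WT libraries, with no overlap. In the CD45 sort they had 48.2 CPM in the Lag3KO library, against 96.8 CPM in WT_CD45 1 and 3.14 CPM in the library labelled WT_CD45 2. In dendritic cells, the class of cDC2 or monocyte-derived cells had 111 CPM in the Lag3KO library of the CD45 sort, 132 CPM in WT_CD45 1 and 82.0 CPM in the library labelled WT_CD45 2. Monocytes or macrophages had 30.3 CPM in the Lag3KO library of the CD45 sort, 39.98 CPM in WT_CD45 1 and 13.8 CPM in the library labelled WT_CD45 2. Those of the CD4 sort had 73.4 and 114 CPM in the Lag3KO libraries, against 20.03 and 75.5 CPM in the WT libraries, from 5 to 27 UMIs each. Tconv had 173 CPM in the Lag3KO library of the CD45 sort, against 110.1 CPM in WT_CD45 1 and 96.2 CPM in the library labelled WT_CD45 2. Tconv of the CD4 sort had 91.6 and 26.6 CPM in the Lag3KO libraries, against 70.6 and 14.6 CPM in the WT libraries. Tregs had 70.1 CPM in the Lag3KO library of the CD45 sort, 40.1 CPM in WT_CD45 1 and 43.2 CPM in the library labelled WT_CD45 2. Tregs of the CD4 sort had 80.1 and 11.7 CPM in the Lag3KO libraries, against 27.1 and 11.0 CPM in the WT libraries. The Lag3KO library was thus above both others in Tconv and Tregs of the CD45 sort, and the groups overlapped in the CD4 sort. T cells with little Cd4 of the CD45 sort had 29.9 CPM in the Lag3KO library, between the 16.9 CPM of WT_CD45 1 and the 36.8 CPM of the library labelled WT_CD45 2.

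In 5 of 7 libraries most of the Il1r2 UMIs of Tconv lay in 1 sub-cluster of their sort, led by Ccl1 and Nrgn, genes of recently activated T cells. The sorts were clustered separately, so this sub-cluster, CD45-T1 in the CD45 sort and CD4-T6 in the CD4 sort, was defined apart in each. CD45-T1 held 32 of 153 Tconv (20.9%) in the Lag3KO library of the CD45 sort, against 17.0% in WT_CD45 1 and 23.0% for the library labelled WT_CD45 2. Among CD4 libraries CD4-T6 held 22.9% and 2.80% of Tconv in the Lag3KO libraries, against 10.2% and 3.21% in the WT libraries. The Il1r2 level of CD45-T1 was 430.1 CPM in the Lag3KO library of the CD45 sort, against 121 CPM in WT_CD45 1 and 352 CPM in the library labelled WT_CD45 2. That of CD4-T6 was 230 and 337 CPM in the Lag3KO libraries, against 378 and 70.8 CPM in the WT libraries. The other Tconv had 31.8 and 10.6 CPM in the Lag3KO libraries of the CD4 sort, against 11.5 and 11.4 CPM in the WT libraries. CD45-T1 supplied 57.7% of the Il1r2 UMIs of Tconv in the Lag3KO library of the CD45 sort, 21.9% in WT_CD45 1 and 75.5% for the library labelled WT_CD45 2. In the CD4 sort CD4-T6 supplied 75.8% and 62.0% in the Lag3KO libraries and 86.4% and 26.3% in the WT libraries. Both libraries in which CD4-T6 was scarce, Lag3KO_CD4 2 and WT_CD4 2, also held 17159 and 60175 haemoglobin UMIs, against 0 in Lag3KO_CD4 1 and WT_CD4 1. The part of that difference in the Il1r2 levels was not tested. For comparison, B cells of the CD45 sort had 14.9 Il1r2 CPM in the Lag3KO library, 0 in WT_CD45 1 and 4.72 CPM in the library labelled WT_CD45 2. These came from 4, 0 and 1 UMIs, and whether they were free RNA was not tested.

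Nlrp3, the inflammasome sensor, was low wherever it was found. Monocytes or macrophages had 31.2 CPM in the Lag3KO library of the CD45 sort, against 46.2 CPM in WT_CD45 1 and 29.4 CPM in the library labelled WT_CD45 2. Those of the CD4 sort had 33.9 and 21.2 CPM in the Lag3KO libraries, against 28.0 and 25.2 CPM in the WT libraries, so the groups overlapped in both sorts. Microglia of the CD45 sort had 44.8 CPM in the Lag3KO library, 31.0 CPM in WT_CD45 1 and 29.9 CPM in the library labelled WT_CD45 2. Tregs had no Nlrp3 UMI in any library, where 3 UMIs would be 2.80 to 24.1 CPM, and Tconv of the CD4 sort had 0 and 0.337 CPM in the Lag3KO libraries and 0 in both WT libraries.

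Casp1 was the most evenly spread member. Over the CD45 libraries it was 73.8 ± 1.204 CPM in cDC2 or monocyte-derived dendritic cells, 66.0 ± 4.73 CPM in Tconv and 63.5 ± 4.58 CPM in monocytes or macrophages (SD, n = 3). Tconv of the CD4 sort had 56.5 and 89.6 CPM in the Lag3KO libraries, against 74.7 and 71.5 CPM in the WT libraries. Tconv therefore held 50.8 to 63.9% of all Casp1 UMIs in the CD4 libraries, close to their 53.7 to 59.0% of all UMIs. Among T cell sub-clusters of the CD4 sort, CD4-T3, led by Ifit1 and Ifit3, had 111 ± 13.5 CPM (SD, n = 4), CD4-T4, led by Ccl5 and Gzmk, had 110.0 ± 19.99 CPM, and the Treg sub-cluster had 60.2 ± 13.1 CPM. In the CD4 sort monocytes or macrophages had 102 and 106 CPM in the Lag3KO libraries, against 92.1 and 88.1 CPM in the WT libraries, without overlap.

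Casp4, which encodes caspase-11, was likewise shared by myeloid and T cells. Monocytes or macrophages had 47.8 CPM in the Lag3KO library of the CD45 sort, below the 61.3 CPM of WT_CD45 1 and the 58.7 CPM of the library labelled WT_CD45 2. In the CD4 sort they had 79.0 and 38.1 CPM in the Lag3KO libraries, against 40.1 and 56.6 CPM in the WT libraries. Tconv of the CD45 sort had 26.5 CPM in the Lag3KO library, 44.7 CPM in WT_CD45 1 and 26.5 CPM in the library labelled WT_CD45 2. Tregs of that sort had 21.0, 32.1 and 32.4 CPM in that order, so both lay below monocytes or macrophages. Tconv of the CD4 sort had 49.1 and 63.7 CPM in the Lag3KO libraries, against 45.2 and 54.2 CPM in the WT libraries. Tregs of the CD4 sort had 63.6 and 70.3 CPM in the Lag3KO libraries and 70.1 and 64.5 CPM in the WT libraries, a narrow range. Neutrophils of the CD4 sort had 140.2 and 163 CPM in the Lag3KO libraries, against 76.9 and 83.2 CPM in the WT libraries, without overlap, but from only 6 to 14 UMIs each. The T cell sub-cluster CD4-T3 had 85.1 ± 21.2 Casp4 CPM.

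Il1r1, the signalling receptor, was at 0 to 0.678 CPM in monocytes or macrophages. T cells with little Cd4, whose largest sub-cluster in each sort was led by Cd163l1 and also by Blk and Il17a, had 46.4 Il1r1 CPM in the Lag3KO library of the CD45 sort, 84.7 CPM in WT_CD45 1 and 51.5 CPM in the library labelled WT_CD45 2. That class of the CD4 sort had 118 and 39.2 CPM in the Lag3KO libraries, against 40.1 and 45.5 CPM in the WT libraries. Tconv had 26.5 Il1r1 CPM in the Lag3KO library of the CD45 sort, 24.1 CPM in WT_CD45 1 and 31.4 CPM in the library labelled WT_CD45 2, and Tregs had 0 to 7.01 CPM over all libraries. Il1rap, its co-receptor, was at 8.01 CPM or below in monocytes or macrophages and reached 46.5 CPM in neutrophils of Lag3KO_CD4 2.

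Il18r1, the receptor of IL-18, was at 111 CPM in Tconv of the Lag3KO library of the CD45 sort, 138 CPM in those of WT_CD45 1 and 112 CPM in those of the library labelled WT_CD45 2. Tconv of the CD4 sort had it at 131 and 137 CPM in Lag3KO libraries, against 154 and 194 CPM in WT libraries. Both WT values of the CD4 sort lay above both Lag3KO values. Monocytes or macrophages had 0 to 6.29 CPM of it. Its partner Il18rap was at 43.2 to 71.3 CPM in Tconv. The adaptor Pycard was detected in every class tested, with 841 and 996 CPM in microglia of Lag3KO and 972 and 858 CPM in microglia of WT libraries of the CD4 sort. Gsdmd, the pore former, was at 98.3 to 124 CPM in monocytes or macrophages.

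**Figure D5:**
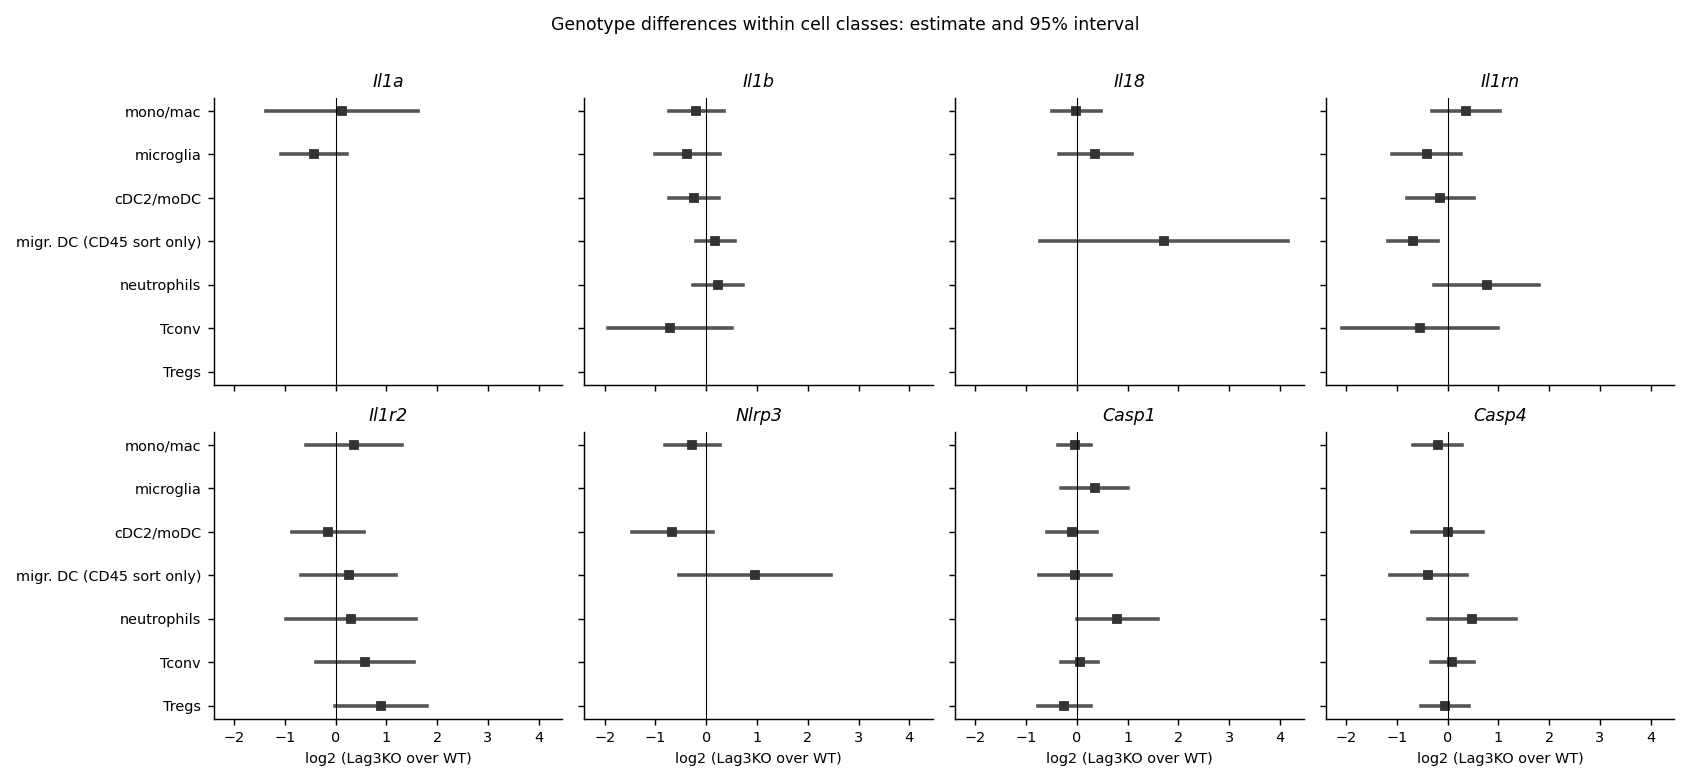
Differences between Lag3KO and WT libraries (x axis, log2 of Lag3KO over WT, with 95% intervals from edgeR) for each gene in each class in which it could be tested (y axis). The intervals of 38 differences include 0. That of Il1rn in migratory dendritic cells lies below it, from a fit of 1 Lag3KO and 2 WT libraries, the library labelled WT_CD45 2 among them. With 1 residual degree of freedom, that interval rests mostly on spread pooled over genes.

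The comparison of genotypes used UMIs summed per library and class in edgeR's quasi-likelihood test, with the sort as a covariate and p-values adjusted over all genes of the class. A gene was called at an adjusted p under 0.05. Over 7 classes, 39 differences of the 8 genes could be tested and 17 could not for low counts. None was called, 19 were positive and 20 negative, and the smallest adjusted p was 0.333. At an unadjusted p under 0.05 there was 1 of 39. DESeq2 called none of them either. P-values here rest on the spread between libraries, which edgeR moderates with spread pooled over the genes of the class. Nothing in the labels says that libraries of a group came from separate mice.

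In monocytes or macrophages 0 of 8 members were called, where 0% of 4224 genes tested were called, 113 of them having an unadjusted p under 0.05. Il1b differed by -0.20 ± 0.24 (log2 of Lag3KO over WT ± SE, 95% interval -0.74 to 0.34, edgeR adjusted p = 1.00). Il1rn differed by 0.36 ± 0.31 (-0.31 to 1.04), Il1r2 by 0.36 ± 0.43 (-0.58 to 1.30) and Il1a by 0.12 ± 0.68 (-1.38 to 1.62). The caspases had narrower intervals, with Casp1 at -0.04 ± 0.15 (-0.37 to 0.28) and Casp4 at -0.20 ± 0.22. Il18 was at -0.01 ± 0.22 and Nlrp3 at -0.27 ± 0.25. Without the library labelled WT_CD45 2, Il1b was at -0.41 ± 0.16 (-0.76 to -0.06), with an edgeR adjusted p of 1.00.

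In neutrophils 0 of 5 members tested were called, where 0% of 1542 genes tested were called and 65 had an unadjusted p under 0.05. All 5 differences were positive, with a median of 0.49 on the log2 scale against -0.01 for all genes tested. Of these, 3 were negative in the CD45 sort alone, Il1b at -0.04, Il1rn at -0.17 and Il1r2 at -0.12. Casp1 differed by 0.79 ± 0.36 (-0.00 to 1.59), Il1rn by 0.77 ± 0.47 (-0.26 to 1.81) and Casp4 by 0.49 ± 0.39. Il1r2 differed by 0.30 ± 0.58 and Il1b by 0.23 ± 0.23. The Il1rn value rested on 1 library: without Lag3KO_CD4 2 it was -0.15. Without the library labelled WT_CD45 2, Il1r2 was at 0.07.

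In microglia 0 of 5 members tested were called, where 0.154% of 3896 genes tested were called. Il1a differed by -0.43 ± 0.31, Il1b by -0.37 ± 0.30 and Il1rn by -0.41 ± 0.33, while Il18 differed by 0.36 ± 0.35 and Casp1 by 0.35 ± 0.32. The 6 genes called there included Arg1 (2.70) and Chil3 (2.90), genes of infiltrating macrophages, and P2ry12 (-0.99) and Fcrls (-3.36), genes of resident microglia. Microglial markers summed to less in the Lag3KO library than in either WT library of the CD45 sort, as given above, and the part of this in the members' differences was not tested. The level of WT_CD45 1 rested on 3 of its 22 cells, as given above. Without the library labelled WT_CD45 2, Il1rn in microglia was at -0.91 ± 0.32 and Il1b at -0.72 ± 0.29, with edgeR adjusted p of 0.490 and 0.637.

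For cDC2 or monocyte-derived dendritic cells, 0 of 6 members tested were called, where 0.0515% of 5830 genes tested were called. Nlrp3 differed by -0.67 ± 0.37 (-1.47 to 0.12), Il1b by -0.25 ± 0.23, Il1r2 by -0.15 ± 0.33, Il1rn by -0.14 ± 0.31 and Casp1 by -0.10 ± 0.23. Casp4 was at 0.01 ± 0.33, with 0.40 in the CD45 sort alone and -2.03 in the CD4 sort alone. Without the library labelled WT_CD45 2, Il1b was at -0.41 ± 0.28, Il1r2 at -0.45 ± 0.38 and Il1rn at -0.35 ± 0.43, and the other 3 could not be tested for low counts. In migratory dendritic cells, which only the CD45 sort held in number, 0 of 7 members tested were called, where 1.00% of 6490 genes tested were called. Il1rn had 158 CPM in the Lag3KO library, against 205 CPM in WT_CD45 1 and 292 CPM in the library labelled WT_CD45 2, and differed by -0.68 ± 0.26 (-1.18 to -0.18, edgeR adjusted p = 0.333). That fit had 1 Lag3KO and 2 WT libraries and 1 residual degree of freedom, so its interval rested mostly on spread pooled over genes. The highest Il1rn value came from the library labelled WT_CD45 2, and leaving out either WT library left no spread to test with. Of the other members, Il18 differed by 1.71 ± 1.25, Nlrp3 by 0.96 ± 0.76, Il1r2 by 0.26 ± 0.48 and Il1b by 0.18 ± 0.20, while Casp4 differed by -0.38 ± 0.39 and Casp1 by -0.04 ± 0.36. The 18 markers of monocytes or macrophages summed to 18674 CPM in these cells of the Lag3KO library, against 10494 CPM in WT_CD45 1 and 10902 CPM in the library labelled WT_CD45 2, with 0, 0 and 2 markers at 0, and their part in this difference was not tested.

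In Tregs 0 of 3 members tested were called, where 0.200% of 5488 genes tested were called. Il1r2 differed by 0.90 ± 0.44 (-0.01 to 1.81), Casp1 by -0.25 ± 0.25 and Casp4 by -0.05 ± 0.23. The Il1r2 value rested on 1 library, being -0.14 without Lag3KO_CD4 1, and was 0.91 ± 0.50 without the library labelled WT_CD45 2. In Tconv 0 of 5 members tested were called, where 0% of 9632 genes tested were called and 283 had an unadjusted p under 0.05. Il1r2 differed by 0.58 ± 0.44 (-0.39 to 1.54), Casp1 by 0.05 ± 0.17, Casp4 by 0.09 ± 0.20, Il1b by -0.71 ± 0.56 and Il1rn by -0.55 ± 0.71. Without the library labelled WT_CD45 2, Il1r2 in Tconv was at 0.52 ± 0.51, Il1b at -0.88 ± 0.60 and Il1rn at -0.85 ± 0.80. When the libraries with haemoglobin UMIs were fitted as a block, Il1r2 in Tconv was at 0.65 ± 0.14 (0.35 to 0.95, edgeR adjusted p = 0.175) and in Tregs at 1.09 ± 0.32 (0.44 to 1.74, edgeR adjusted p = 0.253).

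Whether the genotype difference itself differed between sorts was tested as an interaction in 6 classes, for 37 members by class, and none was called. The shares of all genes called were 0% of 4954 in monocytes or macrophages, 0% of 7072 in cDC2 or monocyte-derived dendritic cells, 0% of 1902 in neutrophils, 0.0633% of 4740 in microglia, 0.0315% of 6349 in Tregs and 0% of 10109 in Tconv. For Il1rn in monocytes or macrophages the genotype difference was -0.23 in the CD45 sort and 1.02 in the CD4 sort, with an edgeR adjusted p of 0.995 for the difference between them.

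Of a list of 50 further genes of the pathway (receptors, signalling proteins, other sensors and effectors), 49 were measured. They gave 146 tests over the 7 classes, of which none was called. In monocytes or macrophages 12 of 21 tested were higher and 9 lower in Lag3KO by estimate, in Tconv 18 higher and 11 lower, in Tregs 8 higher and 13 lower, and in migratory dendritic cells 7 higher and 17 lower. In neutrophils 8 were higher and 2 lower, in cDC2 or monocyte-derived dendritic cells 10 higher and 13 lower, and in microglia 8 higher and 10 lower.

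Genes with the most similar pattern to each member were read from 37 sums of 13 classes in the 3 CD45 libraries, as Pearson correlations of log2(CPM + 1). Points of 1 library share its depth, and of 1 class its cells, so these are descriptions. For Il1b they were Nupr1 (0.90), Mcemp1 (0.88) and Csf2ra (0.87), and for Il1rn they were Neat1 (0.86), Creb5 (0.86) and Cd14 (0.85). For Nlrp3 they were Dpep2 (0.86), Ifitm3 (0.83) and Ifitm2 (0.83), for Il1a Slc11a1 (0.81), C1qb (0.78) and C1qc (0.77), and for Il18 Cd86 (0.77), Clec4a1 (0.76) and Fcgr4 (0.76). The likeness was weaker for Il1r2, with Zbtb7b (0.78), Gnpda1 (0.72) and Adprh (0.70), for Casp4, with Ifit1 (0.70), Txnrd1 (0.68) and Herc6 (0.66), and for Casp1, with Txnrd1 (0.67), Rab5c (0.63) and Dpysl2 (0.62). Between members the highest correlations were those of Il1b with Il1rn (0.84) and with Nlrp3 (0.75). Il1b and Casp1, the substrate and its protease, were at -0.08, and the neighbours Casp1 and Casp4 were at 0.51.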

How the data were processed

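Gene by barcode tables of UMI counts were deposited by the authors for each of 7 libraries. Per the submitters' processing notes they were made with Cell Ranger and Seurat on GRCm38 (mm10), and per the file headers of the CD4 libraries with Cell Ranger 3.0.2. The values are raw counts per gene and barcode. Whether reads were counted by strand, and on which annotation, is not given in the sources used here.

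Barcodes with under 200 genes or over 10% mitochondrial UMIs were left out, as was the share with the highest doublet scores, 0.8% per 1000 barcodes. Each sort was clustered with scanpy 1.11.5 and leidenalg 0.10.2 (2000 variable genes without the members and their pathway, 30 components, 15 neighbours, resolution 1.0), with Python 3.11.15 and scipy 1.17.1. Clusters were named from marker UMIs. A barcode was mixed with at least 2 T cell UMIs and 5 per 10000, and at least 150 myeloid UMIs per 10000. Counts were summed per library and class of at least 20 cells and tested with edgeR 4.0.16 (TMM, filterByExpr, quasi-likelihood test, Benjamini-Hochberg, 0.05, two-sided) under R 4.3.3, with limma 3.58.1 loaded; DESeq2 1.42.0 was an alternative. The fits were tested on simulated data. Intervals are exact 95% (Clopper-Pearson or Poisson), and 3 UMIs is the floor.

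All 8 members are named in every fit that tested them, with fixed receptors and effectors, pathway genes past the threshold, and the 3 genes most like each member among those of at least 20 mean CPM. The members and all gene lists were chosen with earlier results of these data known. Promoter sequences are RefSeq's.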

Additional observations from a re-analysis of the deposited data

Results flagged for a closer look

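Genotype differences of opposite direction in the 2 sorts, with every Lag3KO library on 1 side of every WT library in each, were seen for 5 measures. The number of measures compared is not given here. With so few libraries per group such an order can also arise by chance, so the count is not read as a result. For 3 of them the difference between sorts was tested and not called: Il1b in Tconv (edgeR adjusted p = 0.960), Casp1 in Tregs (0.969) and Casp1 in monocytes or macrophages (0.995). For the other 2 it was not tested. The Il1rn to Il1b UMI ratio in monocytes or macrophages differed by -0.207 in the CD45 sort (0.553 in Lag3KO, against 0.760 in WT) and by 0.498 in the CD4 sort (0.757 in Lag3KO, against 0.259 in WT). In the CD45 sort the larger WT value came from the library labelled WT_CD45 2. Il18 in neutrophils differed by -2.81 CPM in the CD45 sort (2.54 CPM in Lag3KO, against 5.34 CPM in WT) and by 11.98 CPM in the CD4 sort (17.5 CPM in Lag3KO, against 5.50 CPM in WT), from 0 to 4 UMIs per library.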

How the results depend on the processing

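None of the 39 member differences was called as reported or under any of 480 alternatives; the smallest adjusted p was 0.333 as reported and 0.0834 over all settings. The direction was less settled: 25 of the 39 had another sign in some setting. No paired analysis was possible because the labels carry no replicate numbers shared between groups.

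Genes called over the whole class (as reported: 0 in monocytes or macrophages, 3 in cDC2 or monocyte-derived dendritic cells, 65 in migratory dendritic cells, 0 in neutrophils, 6 in microglia, 11 in Tregs, 0 in Tconv) moved in some settings. With the CD4 sort alone they were 7, 26, not fitted, 2, 26, 7 and 3 in that order. With the CD45 sort alone they were 28 in cDC2 or monocyte-derived dendritic cells, 21 in neutrophils, 12 in microglia, 6 in Tregs and 37 in Tconv. DESeq2 called 2 in migratory dendritic cells and 7 in Tregs. With each barcode classed by itself they were 79 in cDC2 or monocyte-derived and 10 in migratory dendritic cells, 1 in microglia and 0 in Tregs. With the haemoglobin block they were 7 in cDC2 or monocyte-derived dendritic cells, 20 in Tregs and 4 in Tconv. With mixed barcodes kept, 0 were called in cDC2 or monocyte-derived dendritic cells. Without filterByExpr they were 34 in monocytes or macrophages, 39 in cDC2 or monocyte-derived dendritic cells, 24 in microglia, 25 in Tregs and 57 in Tconv. Leaving out 1 library in turn gave 0 to 7 in monocytes or macrophages, 2 to 28 in cDC2 or monocyte-derived dendritic cells, 0 to 2 in neutrophils, 4 to 32 in microglia, 5 to 13 in Tregs and 0 to 3 in Tconv.

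Differences of another sign are given as log2 of Lag3KO over WT. With the CD4 sort alone, monocytes or macrophages had Il18 at 0.28, Casp1 at 0.18 and Casp4 at 0.38, cDC2 or monocyte-derived dendritic cells Casp4 at -2.03 and microglia Il1a at 0.23. With the CD45 sort alone, monocytes or macrophages had Il1a at -0.52, Il1b at 0.13 and Il1rn at -0.23, neutrophils Il1b at -0.038, Il1rn at -0.17 and Il1r2 at -0.12, cDC2 or monocyte-derived dendritic cells Il1rn at 0.016 and Tconv Casp4 at -0.40. DESeq2 gave Il18 0.023 in monocytes or macrophages and Casp4 -0.50 in cDC2 or monocyte-derived dendritic cells, where RLE scaling gave -0.010. With barcodes classed singly, monocytes or macrophages had Il18 at 0.15 and Casp4 at 0.068, cDC2 or monocyte-derived dendritic cells Il1r2 at 0.17, migratory dendritic cells Il1b at -0.13 and Il1r2 at -0.15, neutrophils Casp4 at -0.22, microglia Il1a at 0.064, Tregs Casp1 at 0.052 and Casp4 at 0.062 and Tconv Il1r2 at -0.076. With mixed barcodes kept, Il18 was at 0.022 in monocytes or macrophages, Il1r2 at 0.069 in cDC2 or monocyte-derived and -0.26 in migratory dendritic cells, and Casp1 at -0.20 in microglia. Without filterByExpr, Il18 was at 0.034 and Casp1 at 0.0099 in monocytes or macrophages and Casp4 at -0.0069 in cDC2 or monocyte-derived dendritic cells.

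Leaving out 1 library in turn gave, in monocytes or macrophages, -0.46 to 0.27 for Il1a, -0.14 to 0.28 for Il18, -0.068 to 0.18 for Casp1 and -0.34 to 0.38 for Casp4. It gave -0.35 to 0.016 for Il1rn and -2.03 to 0.40 for Casp4 in cDC2 or monocyte-derived dendritic cells. In microglia it gave -0.75 to 0.23 for Il1a, -0.92 to 0.039 for Il1b and -0.91 to 0.34 for Il1rn. It gave -0.15 to 1.17 for Il1rn in neutrophils, -0.14 to 1.61 for Il1r2 in Tregs, and -0.17 to 0.25 for Casp1 and -0.072 to 0.20 for Casp4 in Tconv. The causes were not tested. Mean levels per group moved by more than the spread between libraries in 61 alternatives of the classing and kept within it in 203, and in 264 that left out a library. Shares of cells with a UMI moved on thinning in 36 cases and not in 4, and the Il1rn to Il1b ratio stayed within that spread in the alternatives run.

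Depth limits the rarer classes: neutrophils of the CD4 sort held 72119 to 90979 UMIs per library, so that 3 UMIs were 33.0 to 41.6 CPM. With 1 Lag3KO library in the CD45 sort, values of that sort have no Lag3KO spread, and the sorts differ in the sex of the mice.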
